A study of Homo sapiens with 24 samples.

Results

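In U2OS cells, an established human osteosarcoma line, 100 genes had labelled cytoplasmic RNA that took a larger share of the labelled pool in the middle of a chase than at its start or its end. They were selected on measured values, with a score from the uninduced cells only and a filter on the mean over all 24 libraries. For each replicate the level at 2 h was set against the larger of the levels at 0 h and at 6 h, as log2((TPM at 2 h + 1)/(larger end TPM + 1)), and the smaller of the 2 replicate values was the score. TPM (transcripts per 1000000) gives each RNA as a share of its library, corrected for transcript length. Of 25341 genes with a symbol, 10385 averaged at least 5 TPM over the 24 libraries. Of these, 246 were left out because their symbols start with SNOR, MIR, SNAR or HIST. The 100 highest scores among the remaining 10139 genes (0.986%) form the set.

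The study labelled RNA with bromouridine (BrU), a uridine analogue that cells build into RNA as they transcribe it, and pulled labelled RNA out of cytoplasmic RNA with an antibody. Induced cells grew without doxycycline and expressed TOB2 S254D, a mutant form of TOB2, from a stable Tet-off transgene. Uninduced cells of the same stable line carried the same transgene and received doxycycline, which keeps it off. Both arms were sampled at 0, 0.5, 1, 2, 4 and 6 h, with 2 replicates in each of the 12 groups. Removal of the drug and expression of the transgene change together and cannot be told apart. The labels do not say that replicates came from separate cultures, so p-values measure the spread between these samples, which may be technical.

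TOB2 belongs to the BTG/TOB family of antiproliferative proteins, which bind the CCR4-NOT deadenylase, the enzyme complex that shortens the poly(A) tails of mRNAs and so starts their decay. An mRNA is transcribed and processed in the nucleus, exported, translated and finally degraded in the cytoplasm. A cytoplasmic pulse-chase therefore follows arrival and loss of labelled molecules together, and short-lived mRNAs are known to be rich in transcription factors and signalling regulators. Since TPM is a share, a rise or fall here is relative to the other labelled RNAs of that library and not to an amount per cell.

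TOB2 itself was at 499 to 725 TPM in the 12 induced libraries, against 92.3 to 267 TPM in the 12 uninduced libraries, so the arms did not overlap. These values do not separate transgene from endogenous RNA. Sequencing depth is unknown because TPM does not keep it; the number of genes at 1 TPM or more ran from 12594 to 13757 per library. VIM (345.6 to 968 TPM), KRT8 (484 to 1628 TPM) and KRT18 (1210 to 2563 TPM) were abundant, while the leukocyte marker PTPRC was at or near 0 TPM. Among bone and mesenchymal markers COL1A1 was at 5.56 to 22.9 TPM, RUNX2 at 1.68 to 7.53 TPM and BGLAP at 0 to 6.46 TPM, and COL1A2, SPARC, ALPL and TWIST1 were at or near 0 TPM. The noncoding RNAs RMRP, MIR6723 and RPPH1 took 27.5% of TPM in replicate 2 of the induced arm at both 0 h and 0.5 h, against 21.2% and 19.5% in replicate 1. Without these RNAs 96 members still passed the test of the induced mid-chase excess described below, and the counts that moved with them are given with the alternatives.

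Scores in the set ran from 0.47 to 0.97 with a median of 0.58; over the 10139 genes the median was -0.37 and 13.3% of scores were above 0. The 20 highest scores belonged to C2orf69, TXNIP, C2orf49, CWC25, E2F6, LRIG3, SMAD7, FIGNL1, UGCG, ETS2, ENC1, NKRF, C3orf58, PPTC7, PDGFB, AMIGO2, WEE1, ZIC2, N4BP2L2 and BRPF1. The last members inside the limit were HOXA10 (0.474), YTHDF3 (0.473) and NUAK1 (0.468), and the first genes outside it were KLF5 (0.468), ZNF777 (0.466) and PHAX (0.465), so the limit cuts through a continuous range. KLF5, the first gene outside, had the same form. In induced cells it was at 102 and 99.4 TPM at 2 h, 33.4 and 40.2 TPM at 4 h and 16.5 and 16.2 TPM at 6 h, against 96.3 and 96.4, 60.4 and 54.0, and 26.6 and 22.1 TPM in uninduced cells.

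The members were moderately abundant RNAs, with mean levels over all libraries of 6.25 to 824 TPM and a median of 61.5 TPM, against 26.8 TPM over the genes the rule could choose. A single transcript was listed for 46% of them, against 48.8% of those genes. BEND3P3, LINC00472, LOC493754, RPS14P3, SLC7A5P1 and SNHG20 had no protein-coding transcript in the table. MINOS1-NBL1 is a readthrough symbol that shares sequence with its neighbours, and pseudogenes share sequence with their parents, so the values of these are uncertain.

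Because they were selected on uninduced levels at 0, 2 and 6 h, those levels are given as description. The median ratio of the 2 h mean to the 0 h mean was 1.49 in induced cells and 1.62 in uninduced cells. The median ratio of 6 h to 2 h was 0.385 in induced cells and 0.531 in uninduced cells. The members together took 0.740%, 0.886%, 1.00%, 1.10%, 0.723% and 0.417% of all TPM at 0, 0.5, 1, 2, 4 and 6 h in induced cells, and 0.717%, 0.846%, 0.993%, 1.16%, 0.974% and 0.583% at the same times in uninduced cells. The share climbed to 2 h in both arms. At 4 h the induced libraries (0.674% and 0.772%) overlapped those at 0 h (0.784% and 0.696%), while the uninduced libraries at 4 h (0.971% and 0.978%) were above those at 0 h (0.715% and 0.719%).

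**Figure D1:**
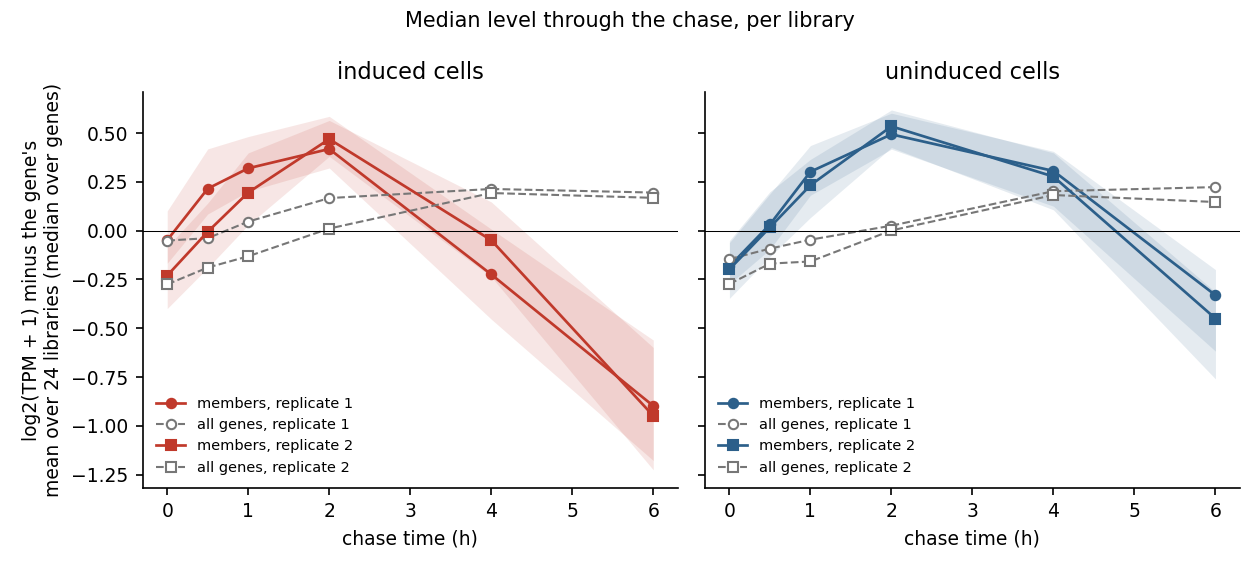
Median over the 100 members (filled, coloured) and over all genes the rule could choose (open, dashed) of log2(TPM + 1) minus each gene's mean over 24 libraries, per library and chase time in h; bands span the interquartile range of members. The median of members was highest at 2 h in both induced series (0.42 and 0.47). It was also highest there in both uninduced series (0.49 and 0.53). In those the rule chose members for a 2 h level above 0 h and 6 h, so that form is description only. The median of all genes lay between 0.15 and 0.22 at 4 h and 6 h.

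The induced arm did not enter the score, only the filter on the mean over 24 libraries, and the same form was present there. The mid-chase excess, the level at 2 h minus the mean of the levels at 0 h and 6 h on the log2(TPM + 1) scale, was above 0 in all 100 members in induced cells, with a range of 0.58 to 1.99. Its median was 0.94, against 0.09 over the 13416 genes tested. It passed the test in 96 of 100 members (limma across all genes, Benjamini-Hochberg adjusted p under 0.05), where 13.6% of all genes tested passed in that direction. FNDC8, LINC00472, MINOS1-NBL1 and RPS14P3 did not pass; their mean levels over all libraries were 7.68, 8.97, 6.25 and 7.99 TPM. Of all calls in this comparison 91.2% were higher. With median-of-ratios factors this was 60.2% and with quantile normalization 56.5%, and both still called at least 92 members. Measured as the score itself, 99 of 100 members were above 0 in both induced replicates, against 17.8% of the genes the rule could choose; the exception was MINOS1-NBL1 at -0.15.

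**Figure D2:**
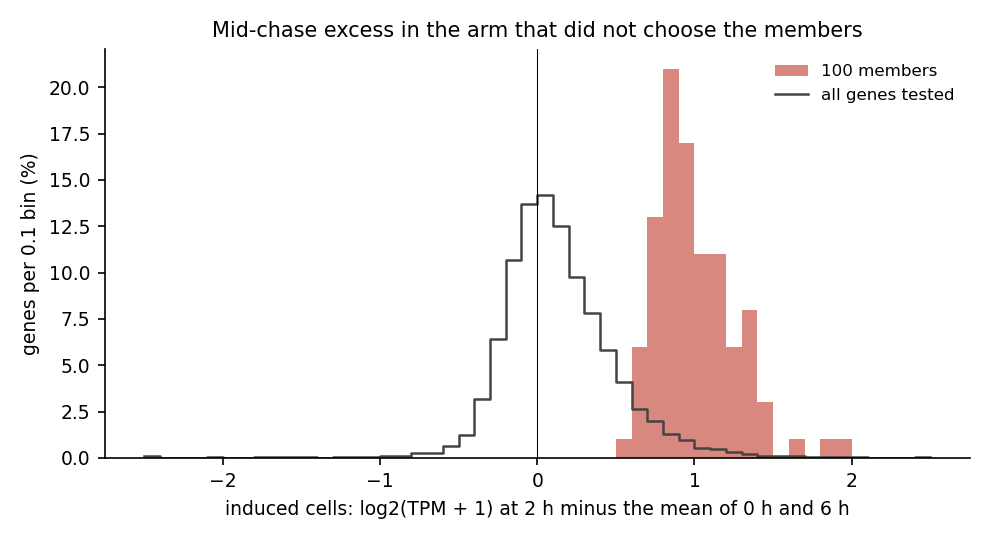
Distribution of the mid-chase excess in induced cells (x axis, log2 scale) for the 100 members (bars) and for all 13416 genes tested (line), as percent of genes per 0.1 bin. All members lie above 0, between 0.58 and 1.99, around a median of 0.94; the median of all genes is 0.09.

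Both sides of the hump were seen in induced cells. The level was higher at 2 h than at 0 h in 81 of 100 members by the same test, with a median difference of 0.57, against 23.1% of all genes called and a median of 0.18. This side depended on scaling and on 1 library. With median-of-ratios factors the median over all genes became 0.00 and 44 members were left. Quantile normalization left 42, and leaving out replicate 2 at 0 h left 43. The higher share of all calls was 83.2%, and 58.1% and 54.5% under those scalings. The level was lower at 6 h than at 2 h in 96 of 100 members, with a median difference of -1.34, against 24% of all genes called and a median of 0.00. The higher share of all calls in this comparison was 49.7%, and 36.8% without RMRP, MIR6723 and RPPH1.

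TXNIP, the thioredoxin-interacting protein that restrains glucose uptake, had the largest excess. In induced cells it was at 31.4 and 23.5 TPM at 0 h, 40.2 and 37.5 TPM at 0.5 h, 60.03 and 59.3 TPM at 1 h, 53.9 and 58.8 TPM at 2 h, 9.40 and 15.0 TPM at 4 h and 7.18 and 5.73 TPM at 6 h. In uninduced cells the same times gave 25.8 and 21.4, 39.1 and 32.7, 57.1 and 51.3, 51.5 and 46.0, 18.3 and 14.2, and 8.69 and 6.17 TPM. The arms overlapped at 0, 0.5, 4 and 6 h, and in both the level dropped steeply between 2 h and 4 h. The excess in induced cells was 1.99 ± 0.17 (SE, adjusted p = 1.19e-06, limma), and the difference between the arms at 4 h did not pass (-0.41 ± 0.20, adjusted p = 0.342).

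SMAD7, an inhibitory SMAD that shuts off TGF-beta receptors, followed with an excess of 1.84 ± 0.16 in induced cells (SE, adjusted p = 1.2e-06, limma). In induced cells it was at 68.3 and 62.4 TPM at 0 h, 95.0 and 110 TPM at 2 h, 23.8 and 26.4 TPM at 4 h and 14.0 and 9.50 TPM at 6 h. The same times gave 57.6 and 54.0, 107 and 112, 32.4 and 35.5, and 16.1 and 11.3 TPM in uninduced cells. Its 6 h level was lower than its 2 h level by the largest amount of any member in induced cells, -3.04 ± 0.19. C2orf69, the highest score of the set, was at 18.3 and 16.1 TPM at 0 h, 27.5 and 34.3 TPM at 2 h and 5.02 and 4.54 TPM at 6 h in induced cells, against 16.8 and 19.4, 34.0 and 40.3, and 7.91 and 5.06 TPM in uninduced cells. Its excess in induced cells was 1.63 ± 0.15 (adjusted p = 2.4e-06).

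The next largest induced excesses were those of FAM46A and ENC1 (1.49 each), PDIK1L (1.41), C3orf58 (1.35), ZBTB10 (1.33), ZNF622 (1.32) and RNF219 (1.32), all past the test. FAM46A encodes a cytoplasmic poly(A) polymerase, an enzyme that lengthens tails, and ENC1 an actin-binding kelch protein. The smallest excesses were those of TMEM234 (0.58 ± 0.15), MINOS1-NBL1 (0.61 ± 0.66), ZNF614, LINC00472 (0.64 ± 0.28), ZNF432, GPATCH3, FASTKD5, REL, BEND3P3 and SLC7A5P1 (0.73 ± 0.24). The call of SLC7A5P1 (adjusted p = 0.0472) was lost without replicate 1 at 2 h (adjusted p = 0.132) among other alternatives, and that of TMEM234 (adjusted p = 0.0117) without replicate 2 at 2 h (adjusted p = 0.169).

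The time of the highest group mean varied within the set. In induced cells 25 members were highest at 1 h, 75 at 2 h and none at 4 h, and in uninduced cells 7 were highest at 1 h, 80 at 2 h and 13 at 4 h. The rule itself keeps uninduced maxima away from 0 h and 6 h. It does not bar them from 1 h or 4 h, but it favours a high uninduced level at 2 h, so shifts between the arms are not free of the choice. All 13 members highest at 4 h in uninduced cells were highest at 2 h in induced cells, and 19 of the 80 highest at 2 h in uninduced cells were highest at 1 h in induced cells; 1 member went the other way. In induced cells, 8.75%, 10.4%, 20.7% and 40.3% of all genes the rule could choose were highest at 1, 2, 4 and 6 h. The same shares in uninduced cells were 5.79%, 7.45%, 24.3% and 43.8%, so all genes also leaned earlier in induced cells. These shifts are given as counts, without a test.

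**Figure D3:**
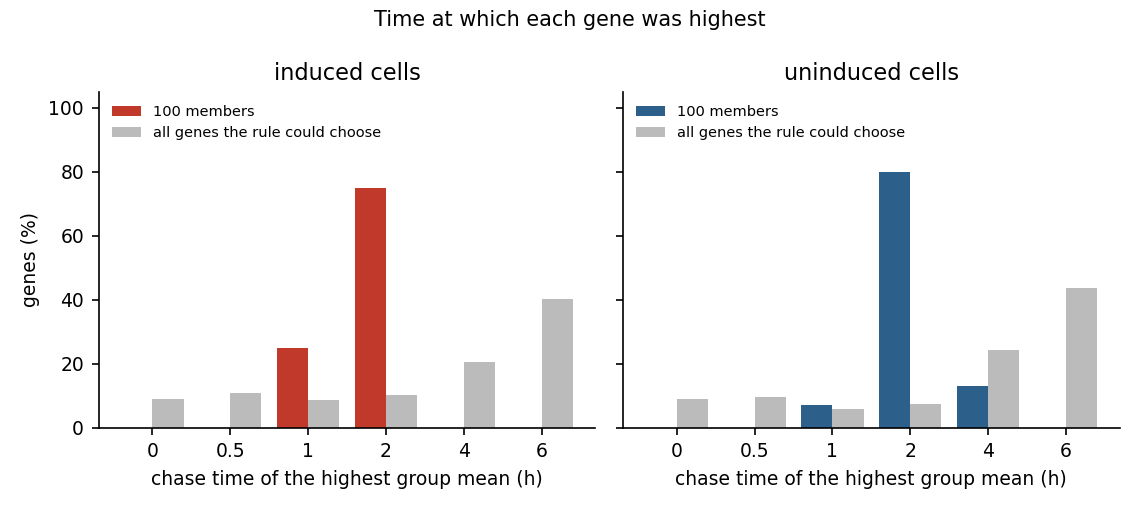
Percent of genes whose group mean TPM (2 libraries) was highest at each chase time in h, for the 100 members (coloured) and all 10139 genes the rule could choose (grey), induced cells left and uninduced cells right. Members are highest at 1 h or 2 h in induced cells (25 and 75) and at 1 h, 2 h or 4 h in uninduced cells (7, 80 and 13).

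Uninduced levels at 0.5, 1 and 4 h took no part in the score and entered the choice only through the filter on the mean over 24 libraries. Between 0.5 h and 1 h the level was above 0 in difference for 97 of 100 members with a median of 0.23, against 0.01 over all genes, but 0 members and 0% of all genes passed upward after adjustment (limma), and 33 members had an unadjusted p under 0.05. Between 1 h and 4 h the set split: 14 members were higher at 4 h, where 29.4% of all genes were, and 15 were lower, where 9.18% of all genes were. Those higher at 4 h were MIER3 (0.76), LRIG3 (0.70), ABL2 (0.63), URB2 (0.62), UGCG (0.57), PPTC7 (0.54), REL (0.54), SIRT1 (0.54), C2orf49 (0.46), YTHDF3 (0.39), ZXDC (0.38), FASTKD3 (0.37), BCOR (0.35) and FOXO3 (0.29). Those lower were TXNIP (-1.69), SMAD7 (-1.62), GADD45A (-0.95), IFIT2 (-0.90), ENC1 (-0.81), KLF4 (-0.79), SNHG20 (-0.75), KLF11 (-0.69), OSR2 (-0.62), PDIK1L (-0.59), ZNF367 (-0.56), AUNIP (-0.43), ZNF622 (-0.38), ZNF800 (-0.34) and IRF2BP2 (-0.34).

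How many members fell on either side of this split depended on scaling. The median over all genes here was 0.18. With median-of-ratios factors it was 0.00, and 5 members were higher and 26 lower. The higher share of all calls was 54.1% with these factors and 76.2% without them. LRIG3 and GADD45A are examples from either side of the split, picked after their values were seen. LRIG3, a membrane protein that modulates growth factor receptors, was at 17.2 and 16.1 TPM at 0.5 h, 19.4 and 19.6 TPM at 1 h, 33.7 and 32.5 TPM at 2 h and 31.3 and 33.4 TPM at 4 h in uninduced cells, a late plateau. GADD45A, a stress-induced growth arrest protein, was at 182 and 164 TPM at 0.5 h, 206 and 213 TPM at 1 h, 176 and 200 TPM at 2 h and 106 and 111 TPM at 4 h in the same libraries, an early maximum.

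Early in the chase few members differed between the arms by the test. At 0.5 h and 1 h combined, 0 members were higher and 1 was lower in induced cells, where 0.783% and 0.798% of all genes were, with a median difference of 0.05 in the set and 0.05 over all genes (limma). Unadjusted, 9 members were higher and 4 lower at p under 0.05. The member called, LDOC1L (-0.33 ± 0.08, adjusted p = 0.0462), missed the threshold when any 1 of the 8 libraries was left out, with adjusted p from 0.0533 to 0.196. The higher share of all calls was 49.5%, and 77.1% without RMRP, MIR6723 and RPPH1.

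At 4 h the members were lower in induced cells. The difference was below 0 in 94 of 100 members with a median of -0.41, against 0.02 over all genes, and it passed the test downward in 42 members and upward in 0 (limma, Benjamini-Hochberg), where 3.9% of all genes passed downward and 0.559% upward. At an unadjusted p under 0.05, 64 members were lower and 0 higher. Both induced libraries were below both uninduced libraries in 78 of 100 members, against 25% of the genes the rule could choose. The count of calls rests on few libraries. Only ZNF367, KLF11 and NUP62, 3 members, passed without replicate 1 of the induced arm at 4 h, and 38 passed without its replicate 2. In the uninduced arm 11 passed without replicate 1 and 15 without replicate 2, and the median stayed between -0.52 and -0.33 in these fits.

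ZNF367, a zinc finger transcription factor, differed most at 4 h. It was at 48.8 and 46.5 TPM in induced cells, against 109 and 102 TPM in uninduced cells, a difference of -1.13 ± 0.12 (SE, adjusted p = 0.000117, limma). At 0 h its values were 119 and 107 TPM in induced cells and 119 and 127 TPM in uninduced cells, which all but meet. At 2 h they were 124 and 138 TPM in induced cells, against 179 and 198 TPM in uninduced cells, which are well apart. The rule used the uninduced levels at 0 h and 2 h and favours a high one at 2 h, so these values are description only. PDIK1L, a serine/threonine kinase, was at 8.23 and 12.1 TPM in induced cells at 4 h, against 22.2 and 20.9 TPM in uninduced cells (-1.03 ± 0.16, adjusted p = 0.0028). KLF11, a TGF-beta-inducible transcription factor, was at 54.3 and 64.2 TPM against 98.7 and 93.1 TPM (-0.69 ± 0.11, adjusted p = 0.00218), and NUP62, a central channel nucleoporin, at 217 and 234 TPM against 325 and 348 TPM (-0.58 ± 0.09, adjusted p = 0.0028). None of these 4 genes had overlapping arms at 4 h. For NUP62 the arms were also apart earlier, at 205 and 198 TPM in induced cells against 236 and 242 TPM in uninduced cells at 0 h, 236 and 215 TPM against 257 and 288 TPM at 0.5 h, and 275 and 280 TPM against 373 and 358 TPM at 2 h. Its difference at 0.5 h and 1 h was -0.25 ± 0.06 (adjusted p = 0.059, limma). The rule used the uninduced levels of NUP62 at 0 h and 2 h, so the gaps at those times are description only.

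The next smallest adjusted p-values at 4 h belonged to ZNF622 (-0.61), CDCA4 (-0.80), KLHL9 (-0.58), KLHL15 (-0.78) and GRPEL2 (-0.86), with adjusted p from 0.00384 to 0.00446 by limma. All of these missed the threshold when replicate 1 of the induced arm was left out (adjusted p from 0.0618 to 0.0768). For CDCA4 the arms were also apart earlier. At 0.5 h it was at 92.2 and 77.6 TPM in induced cells, against 110 and 127 TPM in uninduced cells. At 1 h it was at 108 and 101 TPM against 121 and 126 TPM. The 6 members above 0 at 4 h were ADAMTS15, FNDC8, LINC00472, MINOS1-NBL1, RPS14P3 and TMEM234, with adjusted p from 0.328 to 1. TXNIP, SMAD7 and C2orf69, whose scores were among the highest, differed at 4 h by -0.41, -0.42 and -0.65, of which that of C2orf69 passed (adjusted p = 0.0467).

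**Figure D4:**
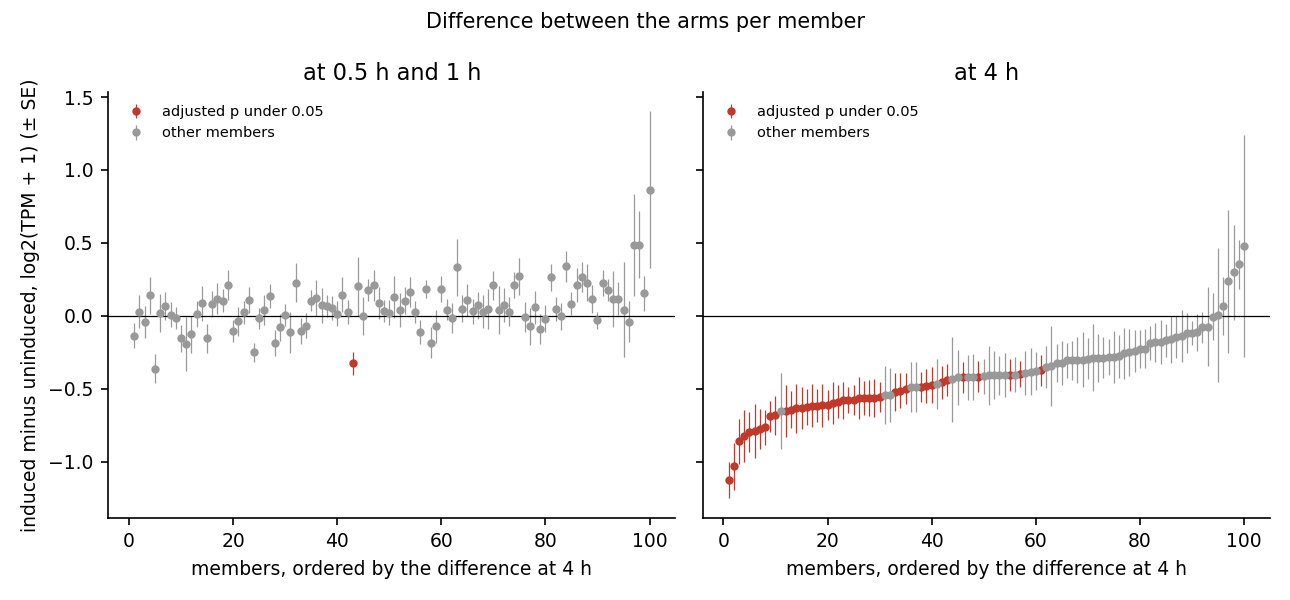
Induced minus uninduced difference per member with its SE on the log2(TPM + 1) scale, at 0.5 h and 1 h together (left) and at 4 h (right), members in the same order in both panels; red marks adjusted p under 0.05. The members scatter around 0.05 early, with 1 called, and lie mostly below 0 at 4 h, with 42 called.

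Whether the arms drew apart between the early times and 4 h was tested directly, in a comparison added after the data were seen. The difference between the arms at 4 h minus that at 0.5 h and 1 h was below 0 in 98 of 100 members, with a median of -0.47 against -0.05 over all genes. It passed downward in 6 members and upward in 0, where 0.216% and 0% of all genes did, and at an unadjusted p under 0.05 there were 64 lower and 0 higher (limma). ZNF367 (-0.99 ± 0.15, adjusted p = 0.0157), PDIK1L (-1.06), SOX4 (-0.72), PPP1R15B (-0.58) and KLF11 (-0.67) were lowest in p. The count was unsteady, 0 to 35 over the alternatives, and leaving out a single library gave 0, 1, 16 or 24; it was 24 without replicate 2 of the induced arm at 0.5 h and 0 without replicate 1 of that arm at 4 h.

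**Figure D5:**
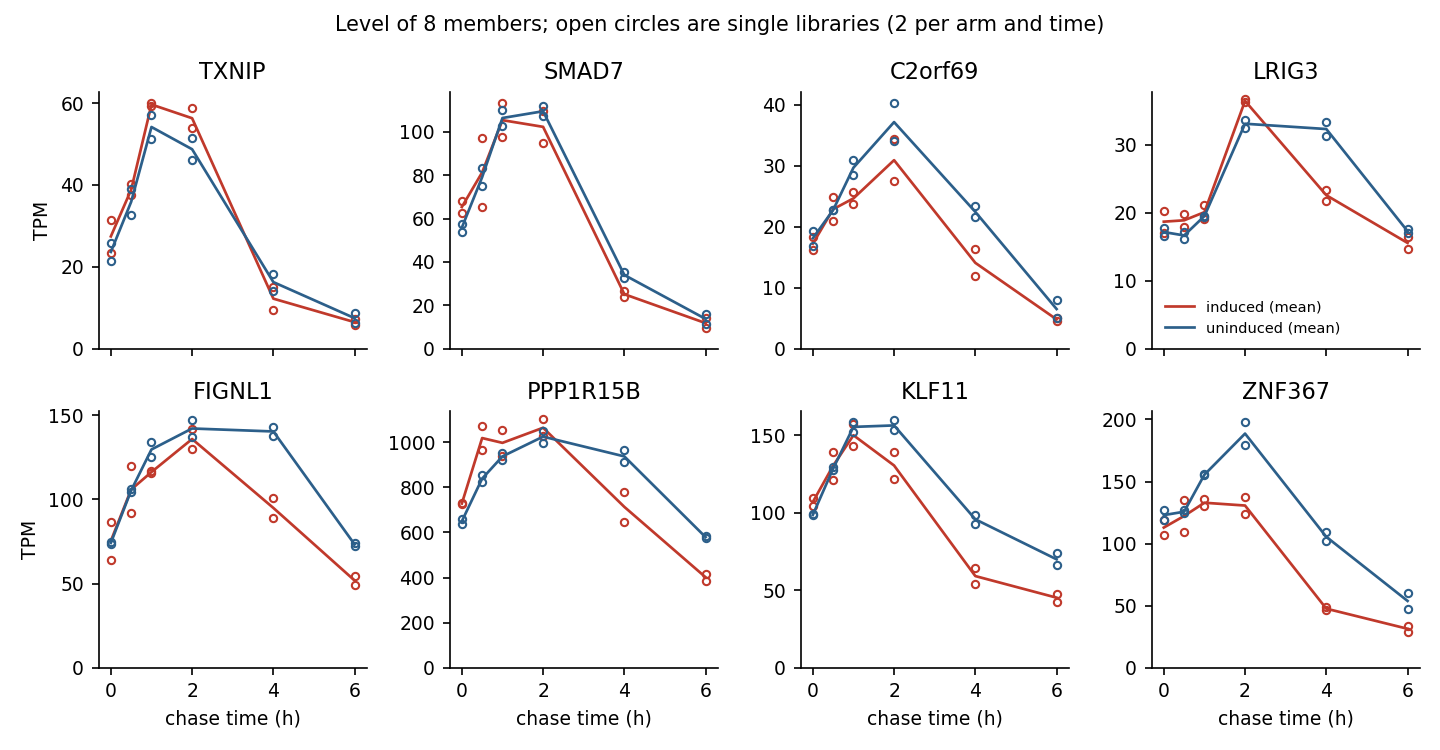
TPM against chase time in h for 8 members, with induced cells in red and uninduced cells in blue; lines are means and open circles the 2 libraries of each group. TXNIP and SMAD7 drop in both arms between 2 h and 4 h, while LRIG3, FIGNL1 and PPP1R15B are near their 2 h level at 4 h in uninduced cells and below it in induced cells.

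Grouped by role after the members were known, 31 encode transcription factors or chromatin proteins. Roles were given to members only, so the share of each role among all genes is unknown. The role counts therefore do not show enrichment. All 31 passed the induced excess test (median 0.89, 0.62 to 1.33), and 17 were lower in induced cells at 4 h. For this and the roles that follow, 96 and 42 of the 100 members passed these tests, against 13.6% and 3.9% of all genes. The role counts for the excess thus mostly repeat that of the set. Those for 4 h rest on few libraries, as given above, so differences between roles at 4 h are not firm. E2F6, a repressive E2F, was at 69.2 and 55.4 TPM at 0 h, 111 and 113 TPM at 2 h, 55.5 and 63.8 TPM at 4 h and 37.0 and 34.5 TPM at 6 h in induced cells, against 64.4 and 66.6, 121 and 130, 98.5 and 93.7, and 55.5 and 46.6 TPM in uninduced cells. The arms overlapped at 0 h and were apart at the later times shown. The rule used the uninduced levels at 0, 2 and 6 h, so those times are description only. The 4 h difference passed (-0.68 ± 0.13, adjusted p = 0.00662, limma). Likewise NKRF, a repressor of NF-kappaB targets, ZIC2, a zinc finger developmental factor, and SOX4, an HMG-box factor, were lower at 4 h by the test (-0.59, -0.64 and -0.62). GATA2 (-0.18), REL (-0.15) and BCOR (-0.11) did not pass there.

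KLF4, a zinc finger factor of the immediate early class, was at 160 and 144 TPM at 0 h, 223 and 161 TPM at 0.5 h, 236 and 232 TPM at 1 h, 184 and 205 TPM at 2 h, 75.5 and 95.4 TPM at 4 h and 47.4 and 48.1 TPM at 6 h in induced cells. Uninduced cells had 146 and 128, 204 and 181, 228 and 208, 214 and 213, 126 and 126, and 85.7 and 69.03 TPM. Its highest mean was thus at 1 h in both arms, and it was lower in induced cells at 4 h (-0.57 ± 0.14, adjusted p = 0.0332). FOXO3, a forkhead factor held back by AKT, was at 83.0 and 104 TPM at 4 h in induced cells, against 93.8 and 102.8 TPM in uninduced cells, which overlap (-0.08, adjusted p = 0.811).

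Signalling molecules, receptors and secreted factors made up 17 members, all past the excess test in induced cells (median 0.95), of which 3 were lower at 4 h. PPP1R15B, a regulatory subunit that directs protein phosphatase 1 to the translation factor eIF2-alpha, was the most abundant of those plotted, with 729 and 726 TPM at 0 h, 1026 and 1101 TPM at 2 h, 647 and 779 TPM at 4 h and 387 and 415 TPM at 6 h in induced cells. Uninduced cells had 638 and 661, 998 and 1050, 963 and 910, and 574 and 583 TPM at those times. The arms were apart at 0, 4 and 6 h, in opposite order at 0 h. Uninduced levels at 0 h and 6 h were used by the rule, so those gaps are description only. The 4 h difference was -0.40 ± 0.09 (adjusted p = 0.0171, limma). GAS1, a membrane co-receptor for hedgehog, was at 30.5 and 46.1 TPM at 4 h in induced cells, against 66.4 and 67.8 TPM in uninduced cells (-0.82, adjusted p = 0.013).

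PDGFB, a platelet-derived growth factor chain, was at 14.6 and 21.6 TPM at 4 h in induced cells and 17.1 and 18.7 TPM in uninduced cells, which overlap (-0.01, adjusted p = 0.999). The WNT receptors FZD2 and FZD5, the BMP antagonist NOG, the Hippo adaptor AMOTL2, the kinase ABL2 and the adhesion protein AMIGO2 also did not pass at 4 h (differences of -0.55, -0.17, -0.28, -0.65, -0.16 and -0.34). At 2 h the replicates of the induced arm were far apart for AMIGO2 (121 and 77.4 TPM) and AMOTL2 (345 and 233 TPM). At 4 h AMIGO2 was at 72.3 and 50.1 TPM in induced cells, against 93.1 and 63.2 TPM in uninduced cells. AMOTL2 was at 200 and 189 TPM against 283 and 332 TPM there, which do not overlap. FZD2 had induced replicates far apart at 4 h, at 17.3 and 34.4 TPM, against 33.9 and 38.5 TPM in uninduced cells. BTG1, an antiproliferative relative of TOB2, was at 22.7 and 24.3 TPM at 2 h and 9.28 and 16.3 TPM at 4 h in induced cells, against 21.6 and 24.0 TPM and 17.5 and 19.4 TPM in uninduced cells (4 h difference -0.54, adjusted p = 0.127).

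Of 7 subunits and adaptors of ubiquitin ligases, which mark proteins for degradation, all passed the excess test in induced cells (median 0.99). At 4 h 6 were lower, where 42 of the 100 members and 3.9% of all genes were. These 6 calls depend on replicate 1 of the induced arm at 4 h. The kelch adaptors KLHL9 (57.5 and 60.4 against 93.7 and 83.3 TPM) and KLHL15 (59.7 and 71.3 against 114 and 111 TPM) were apart at 4 h, induced libraries below uninduced ones. RNF103, a ligase of the endoplasmic reticulum, was the exception in the test (49.2 and 61.5 TPM in induced cells, 70.3 and 55.4 TPM in uninduced cells, adjusted p = 0.66).

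The 6 members with roles in the cell cycle, DNA repair or the centrosome all passed the excess test in induced cells (median 1.10), and 4 were lower at 4 h. WEE1, the kinase that restrains CDK1, was at 111 and 116 TPM at 2 h and 52.03 and 56.8 TPM at 4 h in induced cells, against 125 and 131 TPM and 90.1 and 74.1 TPM in uninduced cells (4 h difference -0.58 ± 0.13, adjusted p = 0.0144). FIGNL1, an ATPase of recombination repair, was at 130 and 141 TPM at 2 h and 89.1 and 101 TPM at 4 h in induced cells, against 137 and 147 TPM and 137 and 143 TPM in uninduced cells, so the uninduced libraries overlapped over these times (4 h difference -0.56 ± 0.13, adjusted p = 0.0189). AUNIP and CDCA4 were the other members of this group called at 4 h, while MCPH1 and CEP85L did not pass (-0.32 and -0.30).

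Of 12 members acting in RNA processing, translation, nuclear transport or mitochondria, all passed the excess test in induced cells (median 0.98) and 5 were lower at 4 h, namely NUP62, ZNF622, GRPEL2, FASTKD3 and YTHDF3. ZNF622, whose yeast homologue Rei1 acts in maturing the large ribosomal subunit, was at 389 and 423 TPM at 2 h, 207 and 235 TPM at 4 h and 82.4 and 86.8 TPM at 6 h in induced cells, against 473 and 452, 338 and 339, and 151 and 146 TPM in uninduced cells. The splicing factor CWC25 and the cleavage factor CSTF1 did not pass at 4 h (-0.41 and -0.18). YTHDF3, a reader of N6-methyladenosine in mRNA, had its highest uninduced mean at 4 h, with 193 and 180 TPM there against 136 and 151 TPM in induced cells.

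The 5 metabolic enzymes all passed the excess test in induced cells. UGCG, which makes glucosylceramide, was at 122 and 121 TPM at 2 h and 76.7 and 88.4 TPM at 4 h in induced cells, against 117 and 130 TPM and 122 and 122.6 TPM in uninduced cells (4 h difference -0.56 ± 0.12, adjusted p = 0.00929). The interferon-induced members IFIT2 and IFIT3 passed the excess test (1.14 and 0.74) and not the 4 h test. Of the 7 noncoding, pseudogene or readthrough members, 4 passed the excess test and 0 were lower at 4 h (median -0.08). SNHG20, a small nucleolar RNA host gene, was at 49.3 and 59.7 TPM at 4 h in induced cells, against 62.1 and 71.7 TPM in uninduced cells (-0.29, adjusted p = 0.333). The remaining 13 members were given no role.

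Against lists of gene families, 9 members are zinc finger genes of the ZNF, ZBTB or ZSCAN kind, 2.41% of the 373 such genes the rule could choose, where the set is 0.986% of all genes. In the whole zinc finger list 175 of 484 genes tested had a higher induced excess and 54 were lower at 4 h. Of all 13416 genes tested, 13.6% had a higher induced excess, 176 genes a lower one, and 3.9% were lower at 4 h. The KLF, SP, FOX and SOX factors held 4 members of 38 (FOXO3, KLF11, KLF4 and SOX4), immediate early genes 3 of 45 (BTG1, GADD45A and KLF4), WNT and Hippo genes 3 of 28 (AMOTL2, FZD2 and FZD5), TGF-beta and BMP genes 2 of 28 (NOG and SMAD7), F-box and KLHL genes 3 of 74 and RNF and TRIM genes 2 of 91. The p53 target (22 genes the rule could choose), homeobox (34), chromatin modifier (63) and microRNA and deadenylation (36) lists held 1 member each. These were GADD45A, HOXA10, SIRT1 and BTG1. Long noncoding symbols held 3 of 374. The lists of AU-rich cytokine, circadian, CLK and SR splicing, receptor feedback, cyclin, centrosome, ribosomal protein, proteasome and oxidative phosphorylation genes held 0. Of 46 immediate early genes tested, 27 had a higher induced excess and 10 were lower at 4 h; of 84 ribosomal protein genes, 1 had a higher and 3 a lower excess.

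Over the 12 group means, the correlation of a member with the mean profile of the set had a median of 0.908 and a range of 0.147 (MINOS1-NBL1) to 0.989, and 15 members were under 0.8. This is a description only, since 3 of the 12 means chose the members and each member is part of the mean profile. The genes outside the set with the most similar profile were SNX18 (r = 0.986), ZNF195 (0.979), HERPUD1 (0.979), PDP1 (0.975) and EAF1 (0.973), by Pearson's r over the same 12 means, which share libraries and scaling. SNX18, a membrane-remodelling sorting nexin, averaged 14.5 TPM in induced cells and 14.7 TPM in uninduced cells at 2 h; at 6 h its means were 6.00 and 8.65 TPM in these arms. Its score was 0.304, below the limit of the set.

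Promoter stretches of a few members are given for reference, as letters and not as sites. RefSeq entries (GRCh38.p14) were matched for 74 of the 100 members, too few for a comparison with all promoters, which is void. In the 250 bases before the start, on either strand, TATAAA was in 8 of 74 members and in 4.7% of all 8128 promoters, CACGTG in 7 and in 9.38%, TGANTCA in 2 and in 3.41%, and TGACGTCA in 0 and in 3.16%. The highest-scoring members with TATAAA or CACGTG on the strand of the gene gave these stretches, with the motif in capitals and the gene's start to the right.
FAM46A, chr6:81752872-81752931, minus strand, TATAAA from 238 bases before the start: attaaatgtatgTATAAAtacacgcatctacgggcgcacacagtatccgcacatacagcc
BTG1, chr12:92145847-92145906, minus strand, TATAAA from 33 bases before the start: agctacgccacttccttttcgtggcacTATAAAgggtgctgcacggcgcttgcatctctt
LRIG3, chr12:58920604-58920663, minus strand, CACGTG from 132 bases before the start: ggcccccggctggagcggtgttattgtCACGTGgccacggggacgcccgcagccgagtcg
GTF3C4, chr9:132669973-132670032, plus strand, CACGTG from 35 bases before the start: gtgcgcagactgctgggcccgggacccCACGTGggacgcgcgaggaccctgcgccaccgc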

How the data were processed

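The deposited table gives TPM per RefSeq transcript for 24 libraries; Trim Galore, Bowtie2, RSEM 1.3.0 and hg19 stand in the submitters' processing notes, without roles or order. TPM of 48009 transcripts was summed per gene symbol; 3 transcripts without a symbol were left out. Depth is unknown, so no counting error is given. The members and gene lists were chosen with earlier results of these data known. Differences are on the log2(TPM + 1) scale, which understates changes of low genes. A 12-group model was fitted with limma 3.58.1 (R 4.3.3) to 13416 genes averaging at least 1 TPM, with a variance trend, 12 residual degrees of freedom and Benjamini-Hochberg adjustment over all genes at 0.05. The fit was tested on simulated data. Named genes are TOB2, the 20 highest scores, 3 genes on each side of the limit, the 10 largest and smallest induced excesses, the lowest adjusted p of each comparison of arms, members in gene lists, 5 similar outside genes, and members named by role; 1 member they include is not reported here. Alternatives were other pseudocounts (0.5 and 5), filters, scalings, protein-coding transcripts only, no variance trend, a replicate block and leaving out single libraries. Promoter letters are from RefSeq, GRCh38.p14, and no other coordinates are given because the table's build differs.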

Additional observations from a re-analysis of the deposited data

Results flagged for a closer look

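A test of the difference between the arms' effects drew attention to 6 members: their difference between induced and uninduced cells at 4 h was lower than that at 0.5 h and 1 h. On the log2(TPM + 1) scale this was -0.99 for ZNF367, -1.06 for PDIK1L, -0.72 for SOX4, -0.58 for PPP1R15B and -0.67 for KLF11, with adjusted p from 0.0157 to 0.046 by limma. All 5 missed the threshold with median-of-ratios scaling (adjusted p from 0.0743 to 0.244, limma) and with no variance trend (adjusted p from 0.0501 to 0.0978, limma). Their calls were also lost when single libraries were left out, replicate 1 of the induced arm at 4 h among others. Over those fits the difference ran from -1.07 to -0.915 for ZNF367 and from -1.31 to -0.806 for PDIK1L. With 2 libraries in a group no single library could be tested as an outlier.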

How the results depend on the processing

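The induced excess (92 to 98 members) and the induced fall from 2 h to 6 h (92 to 98) kept their counts in every alternative run. Members higher at 2 h than at 0 h in induced cells were 81, but 42 after quantile normalization, 44 after median-of-ratios scaling and 53 with protein-coding transcripts only, and 43 to 81 with single libraries left out. For 1 h to 4 h in uninduced cells, quantile normalization gave 3 higher and 39 lower, median-of-ratios scaling 5 and 26, and protein-coding transcripts only 23 lower; single libraries left out gave 7 to 14 higher and 10 to 12 lower. The median there turned to -0.26 with quantile normalization, -0.18 with median-of-ratios scaling, -0.11 without RMRP, MIR6723 and RPPH1 and -0.11 with protein-coding transcripts only, and ran from -0.0525 to 0.0572 with single libraries left out. Between the arms at 0.5 h and 1 h, members lower were 0 with no filter or no variance trend, 3 with quantile normalization, 2 with median-of-ratios scaling or without RMRP, MIR6723 and RPPH1, and 0 to 1 with single libraries left out; members higher were 2 without those RNAs and 6 with protein-coding transcripts only. The median was -0.00747 with median-of-ratios scaling and -0.0119 to 0.123 with single libraries left out. At 4 h the count was 33 to 46, and 3 to 38 with single libraries left out. For the arms drawing apart, the count was 1 with a pseudocount of 5, 12 with a filter at 5 TPM, 3 with no filter, 20 with quantile normalization, 0 with median-of-ratios scaling or no variance trend, 28 without the 3 RNAs, 35 with protein-coding transcripts only, and 0 to 24 with single libraries left out. The cause was not tested. Choosing the members anew with a pseudocount of 5, after median-of-ratios scaling or among genes of at least 20 TPM kept 90, 73 and 84 of the 100, and 100, 92 and 99 of those chosen had a score above 0 in both induced replicates. Deviations of same-numbered replicates were weakly correlated, from 0.0203 to 0.156 between arms by time and from -0.0364 to 0.253 over all 66 pairs of groups. The median over all genes was higher in replicate 1 than in replicate 2 in each of the 12 groups. The main fit had no replicate block and so ignores such a shared shift. With a block, genes called for a higher induced excess went from 1830 to 2425 over all genes. A replicate block gave 2 higher and 3 lower at 0.5 h and 1 h, 22 for the arms drawing apart and 46 lower at 4 h.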
